A study of Mus musculus with 8 samples.

Results

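The Schlafen (Slfn) genes were followed in ovarian tumours of mice given the kinase inhibitor AZD1480. The family was taken as every array probe whose gene name in the files was Slfn1, Slfn2, Slfn3, Slfn4, Slfn5, Slfn8, Slfn9 or Slfn10. These 8 genes, of 31829 gene names on the array, were read by 10 of its 39429 different probes, 2 each for Slfn8 and Slfn9 and 1 for each other member. Female C57BL/6JTgMISIIR-TAg mice carried a transgene in which the anti-Müllerian hormone receptor (MISIIR) promoter drives viral T antigen in the reproductive tract, and all 8 tumours, of about 500 mm3, shared it. AZD1480, an inhibitor of the kinases JAK1 and JAK2, was given to 4 mice at 30 mg/kg in a vehicle of hypermellose and Tween 80, and the other 4 mice received that vehicle without the drug. Tumour tissue was taken 6 h later, and the RNA of each mouse was hybridised to its own single-colour Agilent array. The sources used here do not give the ages of the mice. The tumours are bulk tissue, so fewer cells of a type and less RNA per cell cannot be told apart in any value below.

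Schlafen proteins are intracellular proteins of jawed vertebrates that share a core domain able to bind, and in some members cut, transfer RNA and related RNAs. In mice they form short members (Slfn1, Slfn2), intermediate members (Slfn3, Slfn4) and long members with an added helicase-like part (Slfn5, Slfn8, Slfn9, Slfn10). Many are induced by type I interferon, which signals through the kinases JAK1 and TYK2 to STAT proteins and Irf9, and they are known mainly from lymphocytes and myeloid cells, where several hold back proliferation or activation. The question was how the transcripts of the family stood shortly after JAK inhibition in these tumours.

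The array measured each transcript through single 60-base probes, shown here because several family members are close copies and a value is only as specific as its probe. All 10 probes lie on mouse chromosome 11 in a stretch of 254 kb (mm9 build, positions from the array files). The sources used here do not say whether a probe falls in a coding exon or in an untranslated part. Sequences are written 5′ to 3′, and the capitals mark the stretch that a Slfn8 and a Slfn9 probe have in common.
Slfn1 A_52_P425890, chr11:82935656-82935715, plus strand: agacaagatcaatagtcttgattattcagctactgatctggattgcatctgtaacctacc
Slfn2 A_51_P423578, chr11:82883791-82883850, plus strand: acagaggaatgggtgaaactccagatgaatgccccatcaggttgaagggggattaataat
Slfn3 A_51_P228768, chr11:83028431-83028490, plus strand: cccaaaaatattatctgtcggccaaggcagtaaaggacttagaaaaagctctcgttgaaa
Slfn4 A_51_P183812, chr11:83002974-83003033, plus strand: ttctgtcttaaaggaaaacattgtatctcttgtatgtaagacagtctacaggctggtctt
Slfn5 A_66_P128525, chr11:82774907-82774966, plus strand: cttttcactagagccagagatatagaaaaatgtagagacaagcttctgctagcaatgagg
Slfn8 A_55_P2117656, chr11:82815804-82815863, minus strand: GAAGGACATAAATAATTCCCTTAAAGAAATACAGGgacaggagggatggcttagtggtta
Slfn8 A_66_P105585, chr11:82830985-82831044, minus strand: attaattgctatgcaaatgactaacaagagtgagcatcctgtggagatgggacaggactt
Slfn9 A_55_P2110537, chr11:82793812-82793871, minus strand: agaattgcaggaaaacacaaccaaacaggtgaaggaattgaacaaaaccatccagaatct
Slfn9 A_55_P2117649, chr11:82793914-82793973, minus strand: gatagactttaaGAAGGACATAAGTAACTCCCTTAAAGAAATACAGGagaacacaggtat
Slfn10 A_55_P2135200, chr11:82842116-82842175, minus strand: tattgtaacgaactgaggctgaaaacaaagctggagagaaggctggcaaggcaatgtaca

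The first Slfn8 probe and the second Slfn9 probe matched at 33 of 35 neighbouring bases. Counted from the 5′ end of the Slfn8 probe, with its base first and that of the Slfn9 probe after it, the differences in that stretch were A12G and T16C. The longest identical run of this pair was 19 bases, whereas no other pair among the 45 pairs of family probes had a run above 9 bases. By sequence alone, the signal of A_55_P2117656 and A_55_P2117649 is therefore uncertain as to which of the copies it comes from. In AZD1480 replicate 1 the processed intensity was 207 on A_55_P2117656 and 3869 on A_55_P2117649. How much signal crossed between the probes was not tested. The Slfn10 probe carries the name Slfn10-ps in the files of the second slide, the suffix standing for pseudogene. The current RefSeq table lists Slfn10-ps as a miscellaneous RNA, while naming by accession left this probe as Slfn10.

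Values below are log2 processed intensities minus the 75th percentile of the array, so 0 stands for the 75th percentile of that tumour's probes. Differences are AZD1480 minus vehicle on this log2 scale. A probe was tested if it was well above background, by the scanner software's flag, on at least 4 of the 8 arrays. That held for 7 of the 10 family probes (Slfn2, Slfn3, both of Slfn8, both of Slfn9, Slfn10) and for 28327 probes in all, and Slfn1, Slfn4 and Slfn5 were too dim. The array's 75th percentile of intensity lay between 1587 and 5795, and 66.9% to 76.4% of spots were well above background. The arrays sat on 2 slides scanned apart, each with 2 AZD1480 and 2 vehicle arrays. The slides differed in brightness, with a 75th percentile of 4706 to 5795 on slide 1 and 1587 to 2783 on slide 2. Arrays of slide 1 had 46 to 85 saturated spots each, and those of slide 2 had 0. AZD1480 replicate 1 stood apart, with a median correlation of 0.896 across probes with the other arrays, where the others had 0.960 to 0.974, and values without it are given beside the results it moved. All 11 listed markers of tumour epithelium and gonadal cells, among them Epcam, Krt8, Pax8 and Amhr2, passed the detection filter.

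No Slfn probe passed the test. By limma with Benjamini-Hochberg adjustment over all 28327 probes, 0 of the 7 tested family probes had an adjusted p under 0.05, as did 0% of all tested probes, and 0 of the 7 had an unadjusted p under 0.05, against 1.62% of all tested probes that did so with a lower AZD1480 mean. The AZD1480 mean was below the vehicle mean for 7 of the 7 tested family probes, where 41.9% of all tested probes had that direction. Their median difference was -0.72, and that of all tested probes was 0.058. For 3 of the 7 the means were at least 2-fold lower in AZD1480 tumours, against 4.65% of all tested probes. With values below background raised to the array's lowest signal well above background, 2 were, against 3.69%. With normexp background correction 1 was, against 2.46%. These values leaned on AZD1480 replicate 1: without it 5 of the 7 had a lower AZD1480 mean, their median was -0.27 and 0 were at least 2-fold lower, against 44.5%, 0.036 and 2.25% for all tested probes. In 0 of the 7 were the 4 AZD1480 arrays all below the 4 vehicle arrays, a pattern found in 1.25% of all tested probes. The 7 probes passed a filter on low values, the near-identical genes are not independent of each other, and these counts describe them without testing them.

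Of the short members, Slfn2, which keeps T cells and monocytes quiescent in mice, was well above background on all 8 arrays. It stood at -5.89, -4.52, -3.25 and -3.37 in AZD1480 replicates 1 to 4, against -2.97, -3.66, -2.75 and -2.26 in vehicle replicates 1 to 4. The groups overlapped through vehicle replicate 2, which lay below AZD1480 replicates 3 and 4. The means were -4.26 ± 1.23 and -2.91 ± 0.58 (SD, n = 4 each), which differ by -1.34 ± 0.60 (± standing for the SE in limma here and for all differences below) with a 95% interval of -2.74 to 0.054. That is a 2.54-fold lower mean that did not pass (limma adjusted p = 0.953, unadjusted p = 0.0574), with 2 of 4 AZD1480 arrays below every vehicle array. Within each slide, however, both AZD1480 arrays were below both vehicle arrays, which held for 2 of the 7 tested family probes (Slfn2 and Slfn10) and for 2.90% of all tested probes. The arrays of slide 1 alone gave -1.89 and those of slide 2 gave -0.80, and leaving out AZD1480 replicate 1 gave -0.80.

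Slfn1, the member first described in developing thymocytes, was near background in these tumours. Its probe was well above background on 1 AZD1480 array (replicate 3, -6.98) and 1 vehicle array (replicate 4, -5.14), and the remaining values ran from -9.52 to -8.47 in AZD1480 tumours and from -9.62 to -8.77 in vehicle tumours. It was not tested, and a difference between the groups was not detectable at this signal.

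**Figure D1:**
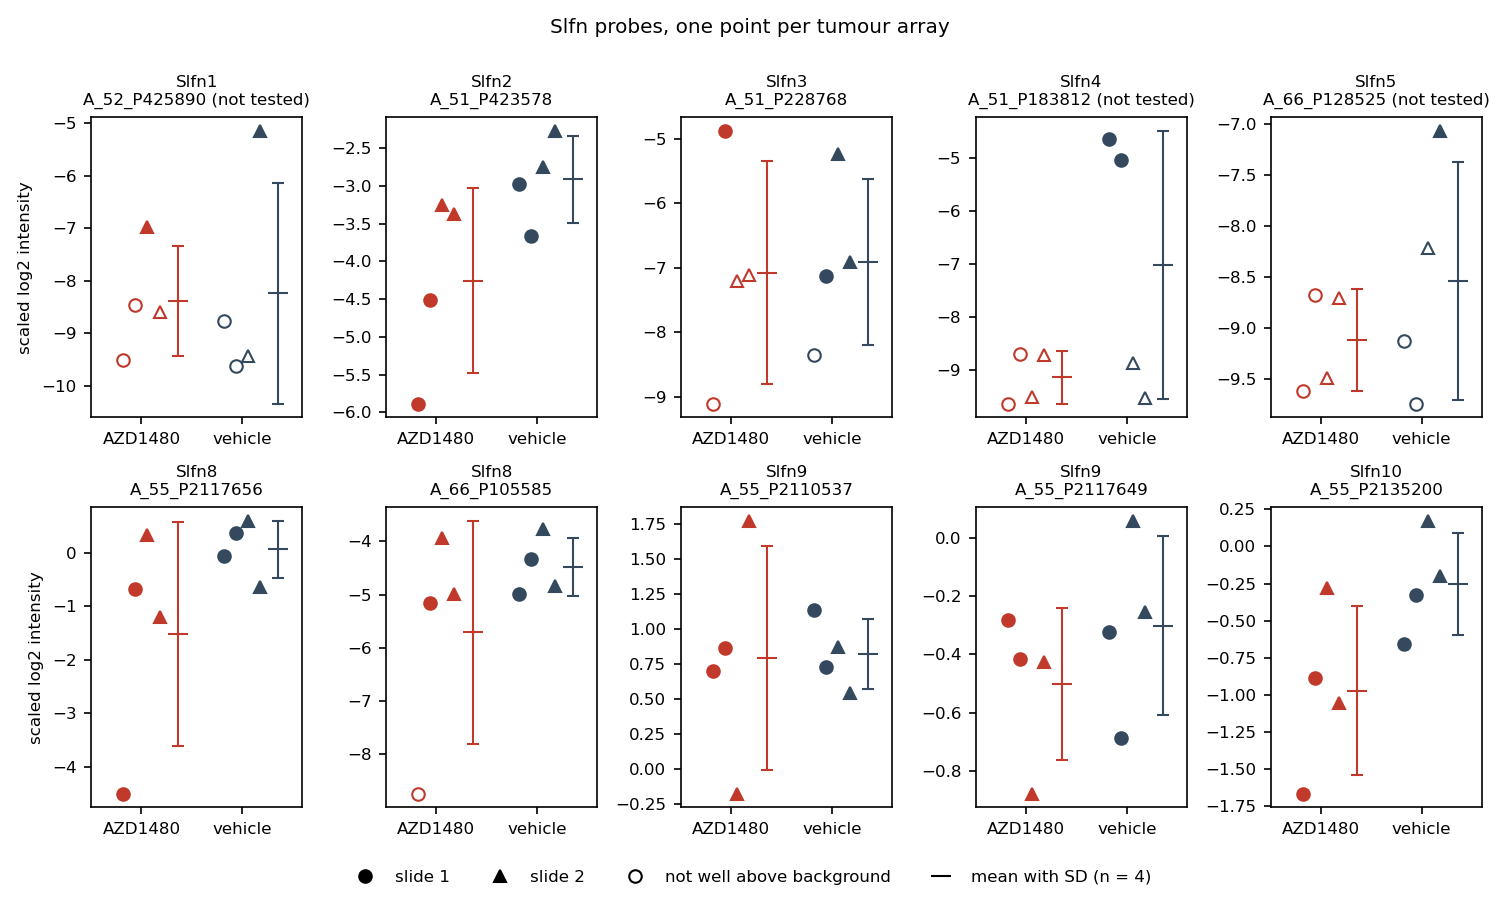
Scaled log2 intensity (vertical axes, each probe on its own scale) of the 10 Slfn probes, with AZD1480 arrays on the left and vehicle arrays on the right of each panel, open symbols for values not well above background, and bars for the mean with SD of 4 arrays. Slfn2, Slfn8 and Slfn10 have lower AZD1480 means with overlapping groups, and the lowest point in each of these panels is AZD1480 replicate 1.

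The intermediate members were faint. Slfn4, a myeloid gene that is induced when mouse macrophages are activated, was detected in 2 vehicle tumours and in 0 AZD1480 tumours. Its values were -9.63, -8.70, -9.50 and -8.71 in AZD1480 replicates 1 to 4, none of them well above background, against -4.64, -5.04, -8.86 and -9.52 in vehicle replicates 1 to 4. The processed intensities behind them were 232 and 157 in vehicle replicates 1 and 2 and at most 12.8 elsewhere. The 2 vehicle tumours with signal were both hybridised on slide 1, and the other 2 lay among the AZD1480 values. No fold is given: raising each AZD1480 value to its array's detection limit put the vehicle mean below the AZD1480 mean (log2 -0.16). That bound is one-sided. Vehicle replicates 3 and 4 also lay below their arrays' limits, of -7.26 and -7.22, and were left as measured.

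Slfn3, which has been linked to intestinal epithelial differentiation in rodents, passed the filter with 1 AZD1480 and 3 vehicle arrays well above background. It stood at -9.10, -4.88, -7.21 and -7.12 in AZD1480 replicates 1 to 4, against -8.36, -7.12, -5.24 and -6.90 in vehicle replicates 1 to 4. The highest and the lowest of the 8 values both belonged to AZD1480 tumours. The difference was -0.17 ± 0.95 (95% interval -2.36 to 2.01; limma adjusted p = 0.991), and it was 0.50 without AZD1480 replicate 1. Slide 1 gave 0.75 and slide 2 gave -1.09, so no direction can be given.

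Among the long members, Slfn8, a helicase-type Schlafen of mouse immune cells, had on its brighter probe the largest difference of the tested family probes, and 1 tumour accounted for most of it. That probe, A_55_P2117656, read -4.51, -0.68, 0.32 and -1.20 in AZD1480 replicates 1 to 4, against -0.069, 0.36, 0.58 and -0.64 in vehicle replicates 1 to 4. AZD1480 replicate 1 lay far below all others, and replicate 3 lay within the vehicle range. The means were -1.51 ± 2.09 and 0.060 ± 0.54 (SD, n = 4 each), a difference of -1.58 ± 0.95 (95% interval -3.77 to 0.62; limma adjusted p = 0.953), with 3 of 4 AZD1480 arrays below every vehicle array. Without AZD1480 replicate 1 the difference was -0.58. Slide 1 gave -2.74 and slide 2 gave -0.41.

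The other Slfn8 probe, A_66_P105585, lies farther along the cluster, has no run above 9 bases in common with the first, and ran in parallel with it. It read -8.74, -5.16, -3.94 and -4.98 in AZD1480 replicates 1 to 4, against -4.99, -4.34, -3.77 and -4.84 in vehicle replicates 1 to 4. The value of AZD1480 replicate 1 was not well above background, and in both groups the tumours kept nearly the order they had on the first probe (r = 0.98 over 8 arrays, 0.83 without AZD1480 replicate 1, as a description). The difference was -1.22 ± 0.95 (limma adjusted p = 0.953), and -0.21 without AZD1480 replicate 1. It was -0.87 with values below background raised to the array's lowest signal well above background, and -0.41 with normexp background correction.

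Slfn10 had the most even difference of the family. It stood at -1.67, -0.89, -0.28 and -1.05 in AZD1480 replicates 1 to 4, against -0.66, -0.32, 0.17 and -0.20 in vehicle replicates 1 to 4. All AZD1480 arrays but replicate 3 were below every vehicle array. The means were -0.97 ± 0.57 and -0.25 ± 0.34 (SD, n = 4 each), a difference of -0.72 ± 0.32 (95% interval -1.45 to 0.0071), or 1.65-fold lower, which did not pass (limma adjusted p = 0.953, unadjusted p = 0.0518). Both slides gave nearly the same value, -0.79 on slide 1 and -0.66 on slide 2, and without AZD1480 replicate 1 it was -0.49.

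Slfn9, the neighbour of Slfn8, showed little difference on either probe. A_55_P2110537 read 0.70, 0.87, -0.17 and 1.78 in AZD1480 replicates 1 to 4, against 1.14, 0.73, 0.88 and 0.55 in vehicle replicates 1 to 4, a difference of -0.030 ± 0.39 (95% interval -0.92 to 0.86; limma adjusted p = 0.994). A_55_P2117649 read -0.28, -0.42, -0.88 and -0.43 in AZD1480 replicates 1 to 4, against -0.32, -0.69, 0.060 and -0.25 in vehicle replicates 1 to 4. That difference was -0.20 ± 0.21 (95% interval -0.70 to 0.30; limma adjusted p = 0.953). On both Slfn9 probes AZD1480 replicate 1 lay inside the vehicle range, in contrast to its position on the Slfn8, Slfn10 and Slfn2 probes. As AZD1480 over vehicle, the intervals reach from 0.529 to 1.82 for the first probe and from 0.618 to 1.23 for the second, so an equal level in both groups is not shown.

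Whether Slfn8 and Slfn9 differed in their response was examined within arrays, on the pair of probes with the shared stretch, a test chosen after the values had been seen. A_55_P2117656 minus A_55_P2117649 averaged -1.01 ± 2.30 in AZD1480 tumours and 0.36 ± 0.60 in vehicle tumours (SD, n = 4 each). The difference of -1.38 over all 8 arrays did not pass (two-sided exact permutation p = 0.343, where 0.0286 is the smallest that 4 against 4 arrays allow). It was -0.31 without AZD1480 replicate 1. Signal crossing between these probes through the shared stretch would make their readings more alike. The test therefore cannot show that the genes responded alike.

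Slfn5, an interferon-induced nuclear member in mouse and human cells, was near background. Its probe was well above background on vehicle replicate 4 alone (-7.07), and the AZD1480 values ran from -9.61 to -8.67 and the remaining vehicle values from -9.74 to -8.22. It was not tested.

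**Figure D2:**
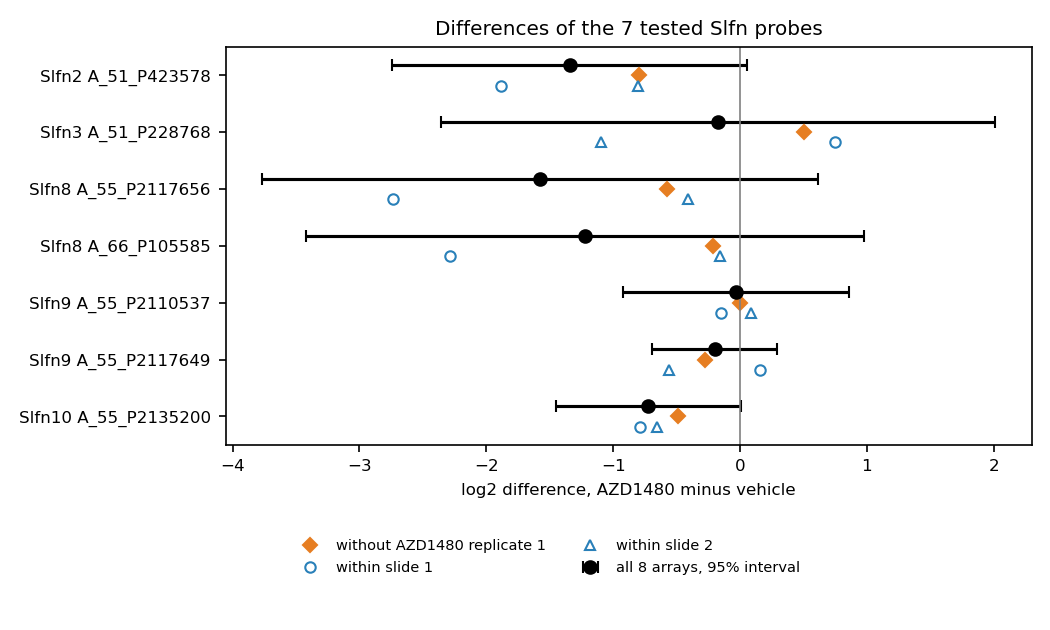
Log2 difference, AZD1480 minus vehicle (horizontal axis), of the 7 tested Slfn probes, with the 95% interval of the fit over 8 arrays, and the differences without AZD1480 replicate 1 and within each slide. All 7 intervals include 0, and the Slfn8 differences of -1.58 and -1.22 shrink to -0.58 and -0.21 without AZD1480 replicate 1.

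Across tumours, some members ran together and others did not. Over the 8 arrays Slfn2 ran with Slfn10 (r = 0.83) and with the brighter Slfn8 probe (r = 0.79), and that Slfn8 probe ran with Slfn10 (r = 0.88). Without AZD1480 replicate 1 these were 0.59, 0.17 and 0.78, so the likeness of Slfn2 and Slfn8 rested on that tumour while Slfn8 and Slfn10 kept most of theirs. With Slfn10 the first Slfn9 probe had r = -0.34 and the second r = 0.060, and with Slfn2 they had -0.0034 and 0.098. With the brighter Slfn8 probe they had -0.14 and -0.18, the second of these being the pair with the shared stretch. Without AZD1480 replicate 1 those with Slfn8 were -0.57 and -0.057. The points share the array, its scaling and, between Slfn8 and Slfn9, probe sequence, and these values are descriptions over 8 arrays.

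The genes of the whole array most like each member across the 8 tumours were found by Pearson correlation among 24432 probes well above background on all arrays. The value without AZD1480 replicate 1 was 0.91 or more for each gene named here. For Slfn2 they were Slc26a9 (r = 0.99), Ocm (0.99) and Myo1e (0.98). For Slfn8 they were Gmfg (0.99), Rarb (0.99) and Smo (0.99), and for Slfn10 St3gal1 (0.98), Plat (0.97) and Lrrcc1 (0.97). For Slfn9 they were Shc4, Cabp5 and Rgs7bp (each 0.98), and for Slfn3 Zfp324 (0.98), Bmi1 (0.97) and Xxylt1 (0.95). The Slfn3 probe itself was well above background on only 4 of the 8 arrays, so its correlations rest partly on background readings. With 8 points and so many probes, correlations of this size are to be read only as the top of a ranking.

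Along the chromosome, the family's largest tested differences were those of Slfn8, Slfn10 and Slfn2, which lie next to each other in the middle of the cluster. Within 100 kb on both sides of the family probes the array held 16 other probes, of which 11 were tested. A lower AZD1480 mean was found in 5 of the 11, against 41.9% of all tested probes. At one end of the window, Nle1, a ribosome assembly gene, was at 0.16 ± 0.17, and the muscle chaperone gene Unc45b at -0.83 ± 1.01. AI662270, just beyond Slfn3, was at -0.88 ± 0.62 and was, like Slfn3, well above background on 1 AZD1480 and 3 vehicle arrays. Between the Slfn probes, 1190001M18Rik was at 0.092 ± 0.15, and a probe named LOC640793, which lies beside the dimmer Slfn8 probe in the files of slide 1 and is unmapped in those of slide 2, was at -0.32 ± 0.28. Slfn14, a further Schlafen gene in this window, was well above background on 0 AZD1480 arrays and 1 vehicle array. The largest difference of the 11 was that of LOC100047189 near the other end, at 0.96 ± 0.43, and of 2 Rad51d probes the one farther out was at 0.34 ± 0.19. All 11 had an unadjusted p of at least 0.0555 in limma.

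**Figure D3:**
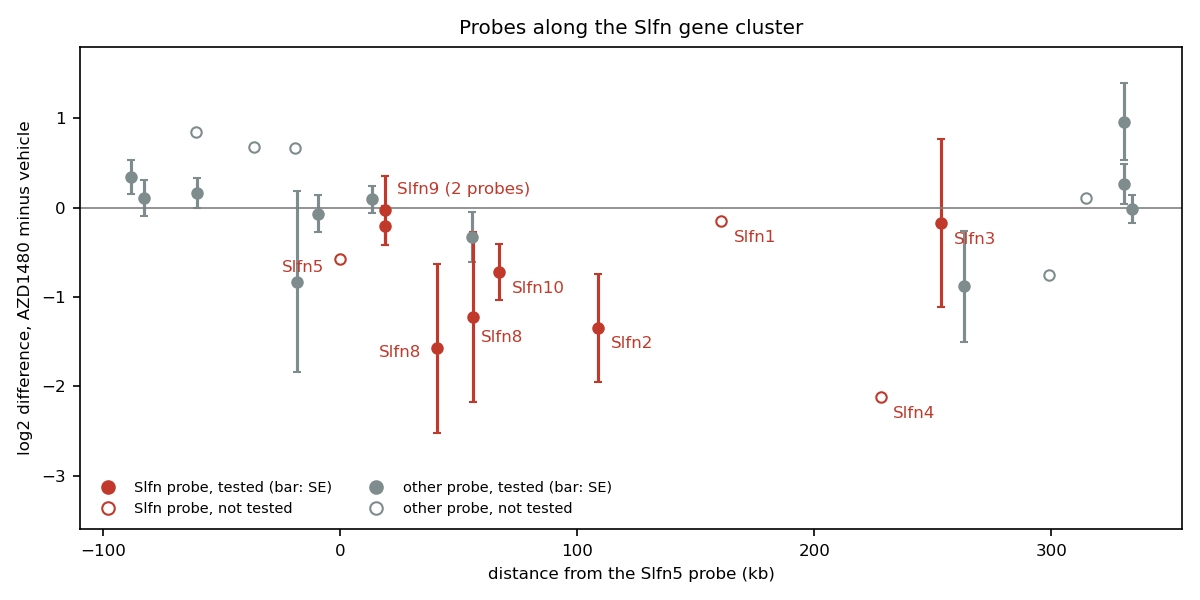
Log2 difference, AZD1480 minus vehicle (vertical axis), of 26 probes along the Slfn cluster against their distance from the Slfn5 probe in kb (horizontal axis), with SE for tested probes and open symbols for probes that were not tested. Slfn8, Slfn10 and Slfn2, between about 41 and 109 kb, lie below 0 by more than 1 SE, as do LOC640793 in that stretch and AI662270 beyond Slfn3. LOC100047189 and the probe A_55_P2086393 at the right end, and the Rad51d probe farther out at the left end, lie above 0 by more than 1 SE.

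The promoters of the members are shown because type I interferon acts through a DNA element, the interferon-stimulated response element. RefSeq (GRCm38.p6) gave windows of 250 bases before to 50 bases after the start for 7 of the 8 members, 8 windows in all, with none for Slfn10. Its core, GAAA and GAAA with any 2 bases between them, on either strand, was found in Slfn5, Slfn8 and Slfn9, and in 3.45% of all 32544 promoter windows. The STAT motif TTCNNNGAA, which reads the same on both strands, was found in 0 of the 8 windows and in 8.33% of all windows. The windows with the element, and that of Slfn2 without it, follow, 5′ to 3′ along the gene's strand, with the element in capitals.
Slfn5, chr11:82951852-82952151, plus strand: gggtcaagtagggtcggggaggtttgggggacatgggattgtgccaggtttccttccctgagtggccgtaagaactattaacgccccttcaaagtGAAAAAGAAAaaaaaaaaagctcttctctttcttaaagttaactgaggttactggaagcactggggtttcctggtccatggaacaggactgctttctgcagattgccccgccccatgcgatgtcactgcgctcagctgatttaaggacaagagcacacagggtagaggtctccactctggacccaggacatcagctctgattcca
Slfn8, chr11:83020761-83021060, minus strand: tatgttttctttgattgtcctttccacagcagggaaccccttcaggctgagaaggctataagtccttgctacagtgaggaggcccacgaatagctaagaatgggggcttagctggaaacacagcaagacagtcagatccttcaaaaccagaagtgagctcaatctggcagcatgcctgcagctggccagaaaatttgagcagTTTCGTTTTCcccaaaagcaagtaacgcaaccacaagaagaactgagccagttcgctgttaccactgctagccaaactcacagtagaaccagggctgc
Slfn9, chr11:82991781-82992080, minus strand: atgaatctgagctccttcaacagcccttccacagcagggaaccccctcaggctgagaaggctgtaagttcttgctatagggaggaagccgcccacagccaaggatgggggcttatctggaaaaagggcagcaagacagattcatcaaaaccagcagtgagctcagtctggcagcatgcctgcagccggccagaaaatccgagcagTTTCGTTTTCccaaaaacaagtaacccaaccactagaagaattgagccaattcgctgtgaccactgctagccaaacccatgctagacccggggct
Slfn2, chr11:83064862-83065161, plus strand: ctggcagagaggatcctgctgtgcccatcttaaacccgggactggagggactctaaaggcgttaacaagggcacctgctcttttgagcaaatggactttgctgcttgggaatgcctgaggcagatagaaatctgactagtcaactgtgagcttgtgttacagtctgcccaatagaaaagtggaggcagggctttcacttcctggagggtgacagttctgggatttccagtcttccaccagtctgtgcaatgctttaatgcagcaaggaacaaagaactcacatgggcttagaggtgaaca

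Slfn8 and Slfn9 carried the same letters, TTTCGTTTTC, the element on the opposite strand, with the first base at -48 and -45 relative to the start, and Slfn5 carried GAAAAAGAAA at -155. The second Slfn8 window holds the same match at -136 from its own start. Slfn8 and Slfn9 therefore had this match in common, and Slfn2 had no match in its window. Whether a match goes with a difference between the groups was not tested. A match is a description of letters and was not tested as a binding site.

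Genes known to be induced by interferon were examined on the same arrays. Of 42 listed type I interferon-induced genes, 40 were measured, each by its brightest tested probe. All 40 had a lower AZD1480 mean, against 41.9% of all tested probes, with a median difference of -1.21 beside 0.058 over all tested probes. Without AZD1480 replicate 1, 39 of the 40 were lower, with a median of -0.70. In 25 of the 40 the groups did not overlap, against 0 of the 7 Slfn probes and 1.25% of all tested probes. By limma 26 were lower at an unadjusted p under 0.05, against 1.62% of all tested probes, but 0 passed over all probes. By the smallest p these were led by Mx1, an antiviral GTPase gene, at -4.37 ± 0.56 (well above background on 1 of 4 AZD1480 arrays), Ifi44 at -3.51 ± 0.59 and Herc6, a ligase for Isg15, at -0.66 ± 0.14. Slfn2 and the brighter Slfn8 probe, at -1.34 and -1.58, had differences around the median of this list. Without AZD1480 replicate 1 they were at -0.80 and -0.58. The dimmer Slfn8 probe was at -1.22, Slfn10 at -0.72, Slfn3 at -0.17 and the Slfn9 probes at -0.030 and -0.20. The SEs of Slfn2 and the brighter Slfn8 probe were 0.60 and 0.95. They lay within the range of the list's SEs, 0.14 to 1.16, and above the list's median SE of 0.52.

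Interferon gamma-induced genes had a median of -0.82 (-0.70 without AZD1480 replicate 1), with 23 of 25 measured genes lower, against 41.9% of all tested probes. The groups did not overlap in 13, against 1.25% of all tested probes. By limma 14 were lower at an unadjusted p under 0.05, against 1.62% of all tested probes, and 0 passed. The GTPase gene Tgtp2 was at -2.09 ± 0.28 and the immunoproteasome subunits Psmb8 and Psmb9 at -1.03 ± 0.18 and -0.94 ± 0.16. The receptor and signalling genes, among them Jak1 and Jak2, had a median of -0.16 (-0.19 without AZD1480 replicate 1). A lower mean was found in 8 of 12, against 41.9% of all tested probes. Against 1.62% of all tested probes, 3 of the 12 were lower at an unadjusted p under 0.05 in limma, and 0 passed. Those 3 were Irf9, a DNA-binding partner of STAT2, at -1.13 ± 0.27, Stat3 at -0.90 ± 0.26 and Stat2 at -0.53 ± 0.21. Transcripts of interferon beta (Ifnb1) and interferon gamma (Ifng) did not pass the detection filter.

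**Figure D4:**
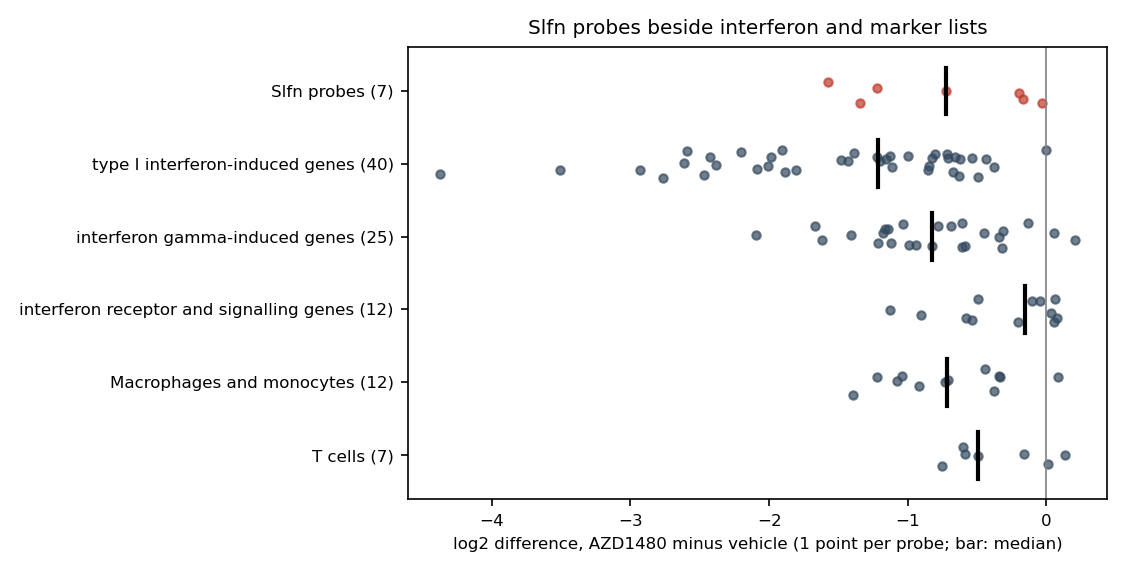
Log2 difference, AZD1480 minus vehicle (horizontal axis), of the 7 tested Slfn probes beside 3 interferon lists and 2 marker lists, 1 point per probe and a bar at the median. The Slfn probes, with a median of -0.72, spread between -1.58 and -0.030 (median -0.27 without AZD1480 replicate 1). The type I interferon list reaches -4.37 at Mx1, which was well above background on 1 of 4 AZD1480 arrays, so that size is uncertain.

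Markers of cells in which Schlafen genes are known were uneven over the AZD1480 arrays, with replicate 1 lowest for macrophages and T cells and highest for neutrophils. Of 12 macrophage and monocyte markers, all measured, 11 had a lower AZD1480 mean, against 41.9% of all tested probes. Without AZD1480 replicate 1, 8 of the 12 were lower, against 44.5% of all tested probes. Their mean scaled log2 level ran from -2.06 to -0.13 over the AZD1480 arrays and from -0.25 to 0.20 over the vehicle arrays, and the lowest was AZD1480 replicate 1, followed by replicate 2 at -0.50. Their median difference was -0.72, and -0.18 without AZD1480 replicate 1. Named by the smallest p, Mrc1, the mannose receptor, was at -1.04 ± 0.31, the Fc receptor Fcgr1 at -1.39 ± 0.49 and Ly6c1 at -1.22 ± 0.54, and 0 markers passed in limma. Of 10 T cell markers 7 were measured, 5 of them lower, and the mean level ran from -4.06 (AZD1480 replicate 1) to -2.95 in AZD1480 tumours and from -3.24 to -2.88 in vehicle tumours, while Cd3g and Cd8a did not pass the detection filter. Without AZD1480 replicate 1 the T cell median difference was -0.076, against -0.49 with it, and 4 of the 7 markers were lower. Neutrophil markers, 5 of 8 measured, averaged -0.55 in AZD1480 replicate 1, against -2.69 to -1.78 in the other AZD1480 tumours and -2.51 to -1.21 in vehicle tumours, and Mpo, Retnlg and Ngp did not pass the detection filter. The part of these cells in the Slfn values was not tested.

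**Figure D5:**
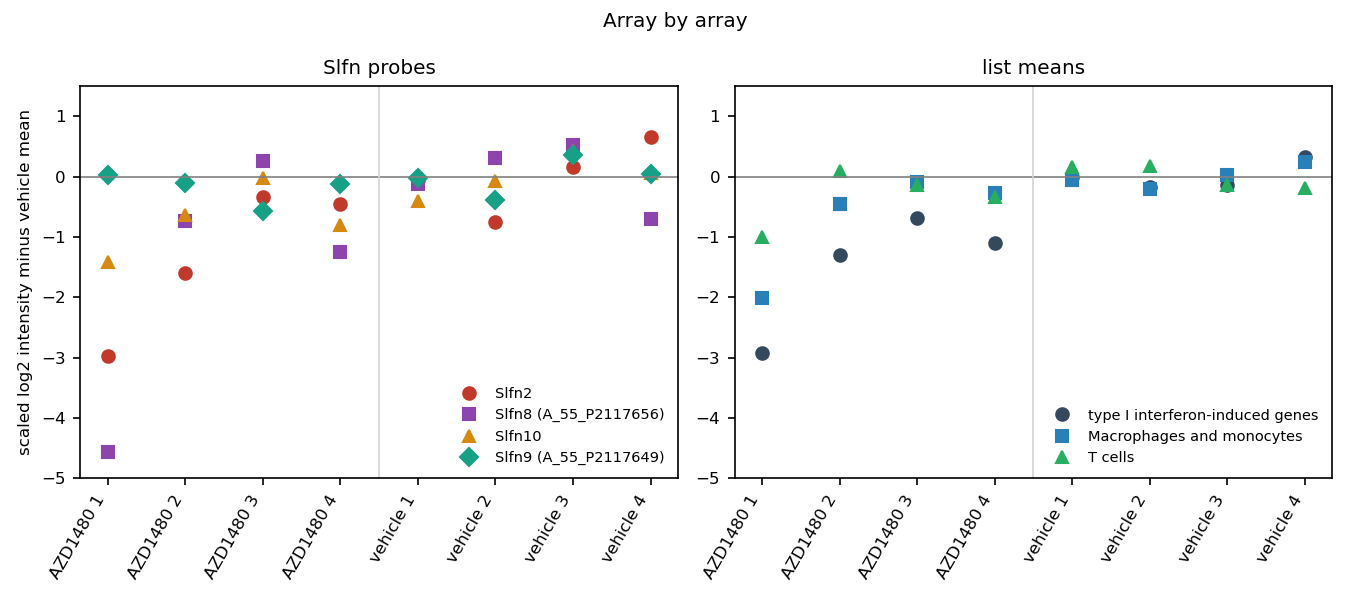
Scaled log2 intensity minus the mean of the vehicle arrays (vertical axis) for 4 Slfn probes (left) and for the mean of 3 gene lists (right) on each of the 8 arrays (horizontal axis). AZD1480 replicate 1 has the lowest Slfn2, Slfn8 and Slfn10 and the lowest macrophage, T cell and type I interferon list means, while its Slfn9 value lies near the vehicle mean.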

How the data were processed

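Per the submitters' processing notes, arrays were read with Agilent Feature Extraction 9.5.3. The deposited files hold, per the file headers, a raw mean, a local background and a processed intensity for each spot, the last with background subtracted. A table of log2 values of these arrays, deposited by the authors, has the same median, 8.36, in each column; the sources used here do not say how it was normalized, and it served as an alternative. Spot flags of the deposited files for saturation, outliers and signal well above background were used as given.

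Log2 processed intensities were scaled to each array's 75th percentile over the 43020 spots that are not controls, and spots of a probe were averaged without outlier flags. A RefSeq accession named 26055 of 39429 probes through the current table; the rest kept the file's name. Groups were compared probe by probe with limma 3.58.1 in R 4.3.3 (two-sided, treatment as the only term), and p-values were adjusted over all 28327 tested probes; figures and exact tests used Python 3.11.15 and SciPy 1.17.1. The script was tested on simulated data. Each replicate is a different mouse per the labels, and 4 a group limits the precision. Slide and the replicate number were fitted as alternatives. Named genes were the members, up to 3 genes with the smallest p of each list (fewer for lists given only as context) and the 3 most alike genes per member. The members and lists were chosen with earlier results of these data known. Protein sequences were not used here.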

Additional observations from a re-analysis of the deposited data

How the results depend on the processing

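In 21 alternatives, limma called 0 probes over all probes, 0 Slfn probes and 0 list genes at an adjusted p under 0.05. Slfn2 (-1.89 to -0.80), Slfn10 (-0.95 to -0.49) and both Slfn8 probes (-2.74 to -0.41 and -2.29 to -0.16) kept a lower AZD1480 mean in every alternative that could be run, and their adjusted p ran from 0.500 to 1. An unadjusted p under 0.05 in limma was reached by Slfn2 in 10 of 21 alternatives and by Slfn10 in 9 of 21. The brighter Slfn8 probe reached it in 1 of 21 and the other tested family probes in 0. Over all probes, from 176 of 28327 (within slide 2) to 779 of 28329 (without AZD1480 replicate 4) were lower at that p. The alternatives reuse the same arrays, so these counts are not repeated support. Slfn3 turned positive with normexp background correction (0.25), array weights (0.25), values below background raised to the lowest signal well above background (0.068, chosen after seeing the data) and within slide 1 (0.75), and ran from -0.91 to 0.50 when single arrays were left out. Slfn9 turned positive within slide 1 for A_55_P2117649 (0.16) and within slide 2 for A_55_P2110537 (0.091), and A_55_P2110537 ran from -0.36 to 0.29 when single arrays were left out. The cause was not tested. The probe of Slfn3 and the dimmer of Slfn8 are lost under the filter on all 8 arrays, which needs signal on each. Over all probes, the 458 lower and 572 higher at an unadjusted p under 0.05 became 678 and 1756 without AZD1480 replicate 3, 779 and 326 without AZD1480 replicate 4, 327 and 295 without vehicle replicate 1, 303 and 367 without vehicle replicate 3, 360 and 336 without vehicle replicate 4, 673 and 377 within slide 1, 176 and 343 within slide 2 and 606 and 865 with array weights.

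Whether replicate numbers pair the arrays was not settled. Deviations from the group means correlated at 0.35, 0.37, 0.14 and -0.060 for numbers 1 to 4, and arrays of different numbers were not compared. With the replicate number as a block, limma again called 0 probes, and Slfn2 and Slfn10 had the same differences with unadjusted p of 0.0320 and 0.00814 (adjusted p = 0.805 for both, range 0.500 to 1 over the alternatives). Signal near background limits Slfn1, Slfn3, Slfn4 and Slfn5, and 4 arrays per group limit all members.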

Other observations

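Markers of other cell types had no common direction, and 0 of them passed in limma, with or without AZD1480 replicate 1. Several medians turned when that array was left out. Neutrophil markers had a median difference of 0.12 (Elane, 0.14 ± 0.22), and -0.45 without it. NK cell markers, 4 of 6 measured, had a median of -0.15 (Eomes, 1.13 ± 0.70), and 0.23 without it. B cell markers, 5 of 6 measured, had a median of 0.078 (Cd79b, -0.92 ± 0.47), and 0.27 without it. Dendritic cell markers, 5 of 6 measured, were at a median of 0.32 (Zbtb46, 0.48 ± 0.34), and 0.33 without it. Endothelial markers, 6 of 6 measured, were at -0.25, and -0.31 without it, with the von Willebrand factor gene Vwf at -1.12 ± 0.32 and no overlap between the groups. Fibroblast markers, 6 of 6 measured, were at -0.022 (the proteoglycan gene Dcn, -1.10 ± 0.59), and 0.083 without it. Markers of tumour epithelium and gonadal cells, 11 of 11 measured, were at -0.47, with 11 of 11 lower, against 41.9% of all tested probes. Vehicle replicate 1 stood highest on this list, with a mean level of 2.62. The other vehicle arrays were at 0.052 to 1.59 and the AZD1480 arrays at -0.045 to 0.86. The list was not examined without vehicle replicate 1. Wfdc2, at -1.31 ± 0.50, was the 1 marker of that list at an unadjusted p under 0.05 in limma. Without AZD1480 replicate 1 the median of that list was -0.36, with 9 of 11 lower, against 44.5% of all tested probes, and 0 at an unadjusted p under 0.05.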
